A study of Mus musculus with 17 samples.

Results

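The constitutive proteasome subunits were followed in the EDL (extensor digitorum longus), a lower-leg muscle built mainly of fast fibres, of 17 aged mice. Rows of the gene table were taken as members when their symbol was Psma, Psmb, Psmc or Psmd followed by a number, leaving out Psmb8, Psmb9 and Psmb10, which replace the catalytic subunits in the immunoproteasome, and Psmb11. The rule found 35 of 36172 rows: 15 core subunits (8 Psma, 7 Psmb) and 20 regulatory subunits (6 Psmc, 14 Psmd). All 34 members other than Psma8 passed the filter on low counts. Of the animals, 10 had been given an empty vector and 7 a vector for Hand2, a transcription factor of sympathetic neurons. The empty-vector group held 2 females and 1 male of 22 months and 3 females and 4 males of 23 months. The Hand2 group held 3 females and 1 male of 22 months and 1 female and 2 males of 23 months. The labels give no strain, no dose, route or time of the vectors, and no untreated or young animals, so every animal here is aged and carries a vector. Each library is 1 animal, and replicate numbers only name animals. The Hand2 transcript lay between 0.0711 and 0.94 CPM (counts scaled by the library total) with the empty vector and between 1.02 and 26.3 CPM with the Hand2 vector. Library totals ran from 19181208 to 30942818 estimated counts, with a median of 26091234. Fast-fibre markers summed to between 101000 and 123000 CPM in every animal and all 9 listed were detected.

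The proteasome is the protease that degrades proteins tagged with ubiquitin. Its core particle is a barrel of stacked rings, the outer ones made of alpha subunits (Psma genes) that gate the entrance and the inner ones of beta subunits (Psmb genes), of which Psmb5, Psmb6 and Psmb7 encode the catalytic ones. The regulatory particle caps the barrel: a ring of ATPases (Psmc genes) unfolds substrates, and a base and lid of non-ATPase subunits (Psmd genes) bind ubiquitin, remove it and hold the particles together. In muscle the ubiquitin-proteasome pathway carries much of the breakdown of contractile proteins, and when the proteasome is inhibited the transcription factor Nfe2l1 is known to raise its subunit genes together through antioxidant response elements.

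Promoter sequence is shown for members because their transcripts varied together between animals, as described below. The RefSeq promoter table (build GRCm38.p6) held 28 of the 35 members, with 250 bases before and 50 bases after each start site. Psma8, Psmb1, Psmb2, Psmb7, Psmc3, Psmd3 and Psmd7 had no entry in it. The ETS core CCGGAAG, read on both strands, was found in 10 of the 28 members (35.7%) and in 9.93% of 27025 genes with a promoter in the table. It lay in 9 of 17 regulatory promoters (Psmc1, Psmc2, Psmc6, Psmd2, Psmd4, Psmd6, Psmd11, Psmd12 and Psmd13) and in 1 of 11 core promoters (Psma6). The GC box GGGCGG was found in 64.3% of the members and 38.2% of all genes. The antioxidant response element TGACNNNGC was found in 17.9% (5 of 28: Psmb5, Psmb6, Psmc6, Psmd9 and Psmd12) against 14% of all genes. CCAAT was found in 39.3% against 41.1%, the E-box CACGTG in 7.14% against 8.09%, and the cAMP response element TGACGTCA, which begins with the letters of the antioxidant response element, in 0 of 28 against 2.03%. These matches describe letters only.

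The 60 bases before the RefSeq start are given for 6 regulatory members whose ETS core lies there, with the motif in capitals (CTTCCGG where it reads on the other strand). They are Psmc1 chr12:100110142-100110201 (plus strand), Psmc2 chr5:21786687-21786746 (plus strand), Psmd2 chr16:20651592-20651651 (plus strand), Psmd6 chr14:14120946-14121005 (minus strand), Psmd11 chr11:80428555-80428614 (plus strand) and Psmd12 chr11:107479468-107479527 (plus strand). The RefSeq start of Psmc1, Psmc2 and Psmd6 is not the end of the locus given in the deposited table.
Psmc1: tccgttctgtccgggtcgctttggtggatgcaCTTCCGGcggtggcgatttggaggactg
Psmc2: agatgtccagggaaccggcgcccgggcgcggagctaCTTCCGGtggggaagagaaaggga
Psmd2: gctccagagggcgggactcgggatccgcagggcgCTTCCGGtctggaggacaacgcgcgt
Psmd6: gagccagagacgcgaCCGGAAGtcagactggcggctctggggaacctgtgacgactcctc
Psmd11: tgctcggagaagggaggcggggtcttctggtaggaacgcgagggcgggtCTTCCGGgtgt
Psmd12: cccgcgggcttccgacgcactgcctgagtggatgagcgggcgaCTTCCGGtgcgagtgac

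The same window is given for the 3 members whose antioxidant response element lies in it, in capitals: Psmb5 chr14:54617996-54618055 (minus strand), Psmb6 chr11:70525297-70525356 (plus strand) and Psmd9 chr5:123228130-123228189 (plus strand). In Psmb6 the element ends at the base before the start.
Psmb5: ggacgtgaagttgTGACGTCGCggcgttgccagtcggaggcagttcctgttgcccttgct
Psmb6: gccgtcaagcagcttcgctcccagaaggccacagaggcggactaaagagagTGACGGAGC
Psmd9: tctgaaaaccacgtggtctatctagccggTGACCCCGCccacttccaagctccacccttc

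Transcript levels were compared between members per kilobase of transcript, as CPM scaled by the trimmed mean of M values (TMM) and divided by transcript length. Among core members Psmb7, a catalytic subunit, was highest at 280 ± 11.4 CPM per kb (SD, n = 17), followed by the catalytic subunit Psmb6 at 206 ± 9.5. Lowest were Psma2 at 40.2 ± 1.73 and Psma3 at 69.3 ± 3.31. Psma2 and Psma3 have long transcripts (2911 and 2846 bases), and per kilobase of coding sequence they stood at 167 and 258 CPM per kb, with Psma3 then in the second place and Psma5 lowest at 119. By family the medians were 86 for Psma and 164 for Psmb per transcript kilobase, and 156 and 205 per coding kilobase.

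Among regulatory members the ATPase Psmc3 was highest at 196 ± 6.42 CPM per kb, next to the ubiquitin receptor Psmd4 at 173 ± 10.3. The 3 lowest were Psmd5 at 4.87 ± 0.283, Psmd10 at 9.6 ± 1.04 and Psmd9 at 12 ± 0.747. Psmd5, Psmd9 and Psmd10 encode chaperones that help assemble the base of the regulatory particle and leave it when it is complete. The next member above them, the lid subunit Psmd11, stood at 50.6 ± 4.89, and the same 3 members were lowest per coding kilobase (14.2, 46.9 and 19.8). Psmd14, the lid's ubiquitin-removing protease, stood at 54.5 ± 1.72. Between these ends lay the core members Psmb5, Psmb3, Psmb4, Psma6, Psma7, Psmb2, Psma4, Psma1, Psmb1 and Psma5, in falling order from 177 to 69.7 CPM per kb. The regulatory members in between were Psmd2, Psmd8, Psmd7, Psmc5, Psmc1, Psmd6, Psmc2, Psmd1, Psmd3, Psmc4, Psmd12, Psmc6 and Psmd13, from 164 to 58.9. Many neighbours in this order differ by less than their SD over animals.

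**Figure D1:**
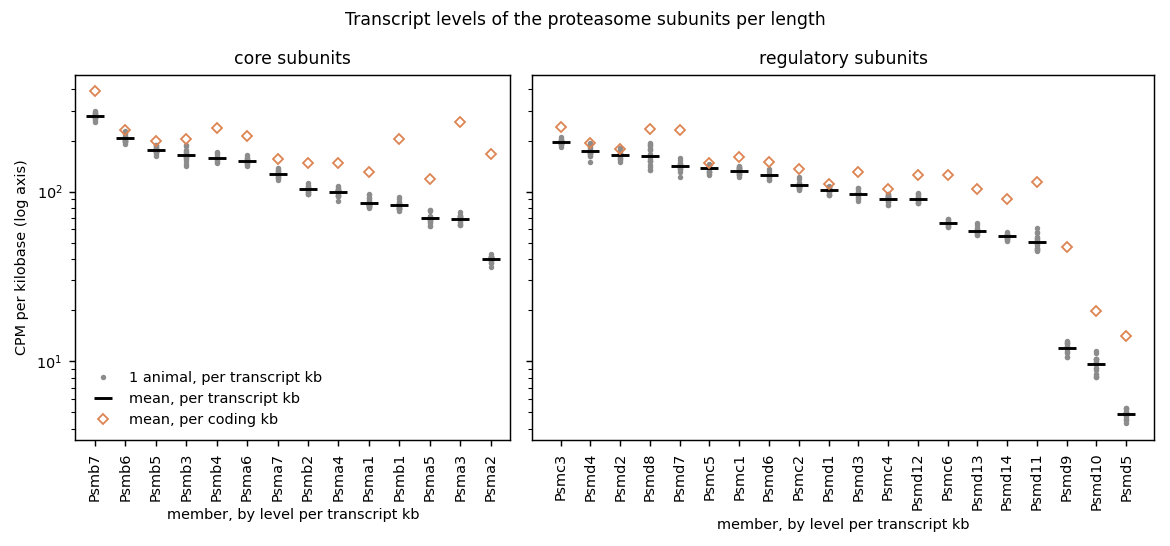
CPM per kilobase on a log axis for 14 core (left) and 20 regulatory members (right), ordered by mean level per transcript kilobase. Grey points are the 17 animals, black bars their mean and orange diamonds the mean per coding kilobase. Psmd9, Psmd10 and Psmd5 lie below the other members on both scales, and Psma2 and Psma3 move up when the coding length is used.

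In CPM, which are not compared between genes, Psmb7 ran from 297 to 348 with a median of 322.5 over the 17 animals, Psmc3 from 299.5 to 341.6 with a median of 320.2, and Psmd4 from 192.1 to 246.2 with a median of 219. Psmd5 ran from 18.96 to 23.42 CPM with a median of 21.28. Psmd4 spread more with the Hand2 vector (192.1 to 246.2 CPM, SD 19.88) than with the empty vector (208.2 to 224.8 CPM, SD 5.318). The coefficient of variation (CV) over the 17 animals ran from 3.15% (Psmd14) to 12.2% (Psmd8) with a median of 4.6%, where the median over all 13965 genes tested was 15%. Core and regulatory members had like medians, 4.56% and 4.62%. Sampling of counts alone gives a median CV of 1.58% for members and 5.12% for all genes. Psmd8 (12.2%), Psmd10 (10.8%), Psmd11 (9.66%) and Psmb3 (7.59%) varied most.

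Psma8, on chromosome 18, encodes the alpha subunit of the testis proteasome. It had 31 counts over all 17 animals, was at 0 in 7 of them and reached 8 counts in 1. A count of 0 allows up to 3 counts in a library, so its level was at or near the floor throughout and it was not tested.

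The members' CPM summed to 5732 ± 180 (SD, n = 17), from 5436 to 6050. Empty-vector replicate 2, a female, was highest, and Hand2 replicates 6 and 7, both males of 23 months, were lowest at 5443 and 5436. The sum was 5757 ± 169 with the empty vector (n = 10) and 5696 ± 203 with the Hand2 vector (n = 7). It was 5790 ± 164 in females (n = 9) and 5667 ± 185 in males (n = 8). Both pairs of groups overlapped widely. Since a whole muscle was sequenced, fewer fibres and less transcript per fibre cannot be told apart.

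**Figure D2:**
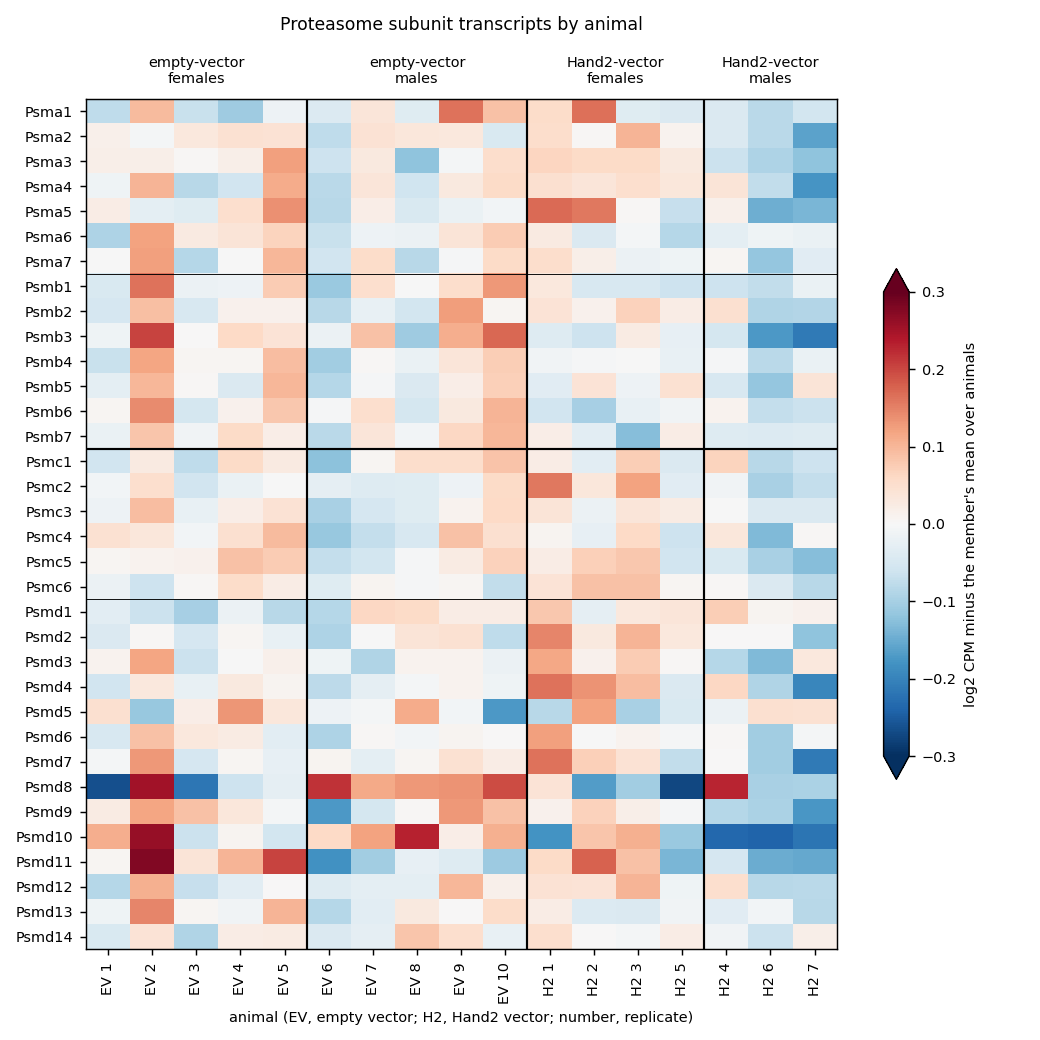
Log2 CPM of each of 34 members minus its mean over the 17 animals, with members in rows (Psma, Psmb, Psmc, Psmd from the top) and animals in columns by vector and sex. Empty-vector replicate 2 is above the mean in most rows and Hand2 replicates 6 and 7 are below it in most, while Psmd8, Psmd10 and Psmd11 show the strongest colours.

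The first comparison asks whether the Hand2 vector altered the members, with sex taken into account. No member was called: edgeR found 0 of 34 at an adjusted p under 0.05, and 0 of 13965 genes (0%). The smallest adjusted p in edgeR over all genes was 0.124. A lack of calls therefore does not show that the members were unchanged. An unadjusted p under 0.05 was found for 3 members (Psmb3, Psmd10 and Psmb6), all lower, and for 5.05% of all genes. DESeq2 and limma-voom also called 0 members, with an unadjusted p under 0.05 for 3 and 2 of them and for 5.71% and 6.04% of all genes. The median log2 fold change was -0.02 over the members and -0.0041 over all genes, with 10 members above 0 and 24 below. By particle, 13 of 14 core members and 11 of 20 regulatory members were below 0, with medians of -0.03 and -0.0067. Without empty-vector replicate 2 and Hand2 replicates 6 and 7, left out together after their sums were seen, 16 members were below 0 and the median was 0.01.

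Psmb3, a structural beta subunit (chr11:97703434-97713500, mm10, plus strand), ran from 116.6 to 144.4 CPM with a median of 129.9 with the empty vector and from 108.4 to 127.7 with a median of 120.9 with the Hand2 vector. The groups overlapped, with Hand2 replicates 6 and 7 below all empty-vector animals. The log2 fold change was -0.14 ± 0.05 (SE), with an adjusted p = 0.921 in edgeR. Psmd10, the X-linked assembly chaperone also called gankyrin (chrX:140948425-140956711, mm10, minus strand), ran from 13.05 to 16.37 CPM with a median of 14.46 and from 11.55 to 14.69 with a median of 12.05. In the Hand2 group 5 animals lay below every empty-vector animal and the other 2 inside their range. Its log2 fold change was -0.19 ± 0.07 (SE, edgeR adjusted p = 0.921). Psmb6, a catalytic subunit, ran from 158.2 to 181.2 CPM and from 153.3 to 165.3, with overlapping groups and a log2 fold change of -0.08 ± 0.03 (edgeR adjusted p = 0.921).

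Every member's 95% interval lay within -0.34 and 0.12 on the log2 scale, its lower bound set by Psmd10 and its upper by Psmd1. Psmb7, the most abundant core member, differed by -0.06 (interval -0.13 to 0.01), and Psmc3, the most abundant ATPase, by -0.0046 (interval -0.07 to 0.06). Psmd14 differed by 0.0015 (interval -0.07 to 0.07). Within one age, the median over members was -0.01 in 22-month animals (20 of 34 below 0) and -0.05 in 23-month animals (31 of 34 below 0), again with 0 members called. Within the Hand2 vector, titles without a letter for sex belong to exactly the 4 animals aged 22 months, so age and whatever that form of title marks cannot be told apart there. Macrophage markers had positive values for 7 of 7 in this comparison, 4 of them at an unadjusted p under 0.05 (median 0.41, smallest edgeR adjusted p = 0.921), with sums of 58.7 to 165 CPM with the empty vector and 103 to 145 with the Hand2 vector. Fibroblast markers had positive values for 6 of 6 (median 0.15, 1 at an unadjusted p under 0.05), with sums of 575 to 1400 and 812 to 1660 CPM, and red blood cell markers for 4 of 4 (median 0.30, 0 at an unadjusted p under 0.05). Their part in the members' values was not tested.

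**Figure D3:**
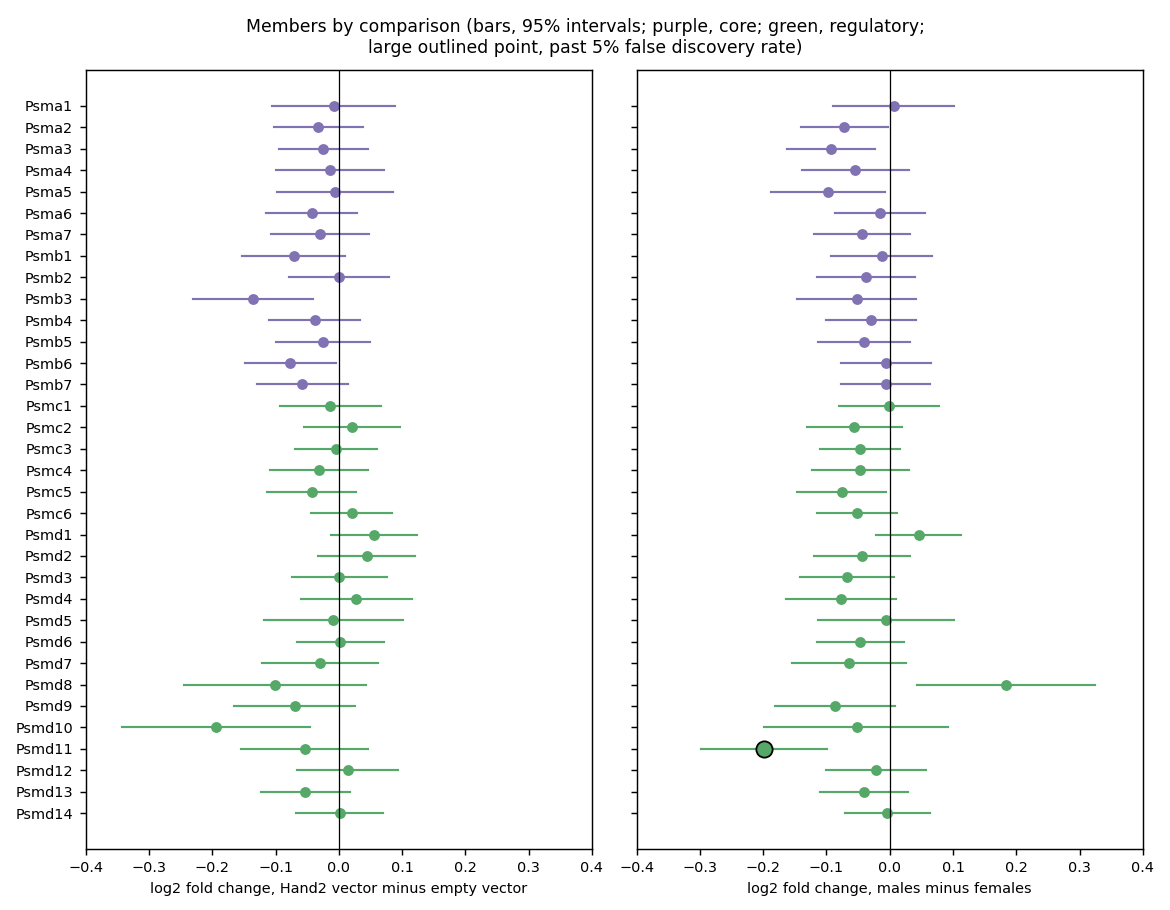
Log2 fold changes of 34 members, Hand2 minus empty vector (left) and males minus females (right), with 95% intervals from edgeR. Core members are purple and regulatory members green, and a large outlined point marks a member past 5%. Only Psmd11 in the comparison of sexes is outlined.

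Within females 0 members were again called for the Hand2 vector, and 0 had an unadjusted p under 0.05, against 0% and 5.9% of all genes in edgeR. DESeq2 and limma-voom called 0 members as well, with 2 and 3 at an unadjusted p under 0.05, against 6.57% and 8.58% of all genes. Members were split evenly, 17 above and 17 below 0, with a median of 0.0036. The smallest p belonged to Psmd2 and Psmd1, the 2 large scaffold subunits of the regulatory base. Psmd2 stood at 470.3, 485.5, 468.1, 486.2 and 477.2 CPM in empty-vector females and 536.2, 494.3, 519.7 and 495 in Hand2 females. No Hand2 female lay below an empty-vector one, and the log2 fold change was 0.10 ± 0.05 (edgeR adjusted p = 0.845). Of the members, 1 had groups that did not overlap in females, namely Psmd2. The share over all genes was not computed, so this is not read as a result about the members. Psmd1 stood at 310.2, 303, 295.9, 313.1 and 299.4 CPM against 335.1, 311.1, 323.9 and 325.3, with 1 Hand2 animal inside the empty-vector range and a log2 fold change of 0.09 ± 0.04 (edgeR adjusted p = 0.845). Psmb6 had a log2 fold change of -0.09 ± 0.05 (edgeR adjusted p = 0.865).

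Within males 0 members passed in edgeR, against 0% of all genes, and 2 of 34 had an unadjusted p under 0.05, against 2.84% of all genes. DESeq2 and limma-voom called 0 members, with 3 each at an unadjusted p under 0.05, against 2.93% and 2.81% of all genes. The log2 fold change was below 0 for 32 of 34 members, all 14 core members among them, with a median of -0.04 against -0.0041 over all genes. Psmd10 stood at 14.23, 14.84, 16.02, 13.84 and 14.69 CPM in empty-vector males and 11.6, 11.55 and 11.73 in Hand2 males. The groups did not overlap, and the log2 fold change was -0.34 ± 0.10 (edgeR adjusted p = 1). In males 2 of 34 members, Psmd10 and Psma1, had groups that did not overlap. The share over all genes was not computed, so this is not read as a result about the members. Psmb3 stood at 124, 133.4, 116.6, 135.4 and 141.5 CPM against 120.9, 111.3 and 108.4, with 1 Hand2 male inside the empty-vector range and a log2 fold change of -0.20 ± 0.07 (edgeR adjusted p = 1). Psma2, an alpha-ring subunit, stood at 110.7, 120.3, 119.6, 119.4 and 113.1 CPM against 113.4, 110.5 and 104.5, which overlap, with a log2 fold change of -0.09 ± 0.05 (edgeR adjusted p = 1). Of the 3 Hand2 males, replicate 4, of 22 months, had a member sum of 5747 CPM, inside the empty-vector males' range of 5496 to 5884, and replicates 6 and 7 lay below it. Without empty-vector replicate 2 and Hand2 replicates 6 and 7 the median was -0.0038, with 19 members below 0 and 1 Hand2 male left.

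Marker lists in males, none of whose genes passed (edgeR adjusted p = 1), had these values beside the members. Red blood cell markers had positive values for 4 of 4, each at an unadjusted p under 0.05 (median log2 fold change 1.58), with sums of 486 to 2290 CPM against 280 to 700 in empty-vector males. Fast-fibre markers had positive values for 8 of 9 (median 0.13), 1 of them at an unadjusted p under 0.05. Fibroblast markers had positive values for 6 of 6, 0 of them at an unadjusted p under 0.05 (median 0.41), with sums of 905 to 1660 against 606 to 1400 CPM. Their part in the members' values was not tested.

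The vector's effect was compared between the sexes by an interaction contrast, males minus females. At 5%, edgeR called a difference for 0 members and 0% of all genes. An unadjusted p under 0.05 was found for 0 members, against 3.39% of all genes. DESeq2 and limma-voom called 0 members and 0 genes, with 0 and 4 members at an unadjusted p under 0.05, against 3.87% and 4.71% of all genes. The smallest p belonged to Psmd10 (-0.27 ± 0.13), Psma1 (-0.17 ± 0.09) and Psmd7 (-0.16 ± 0.08), each with an edgeR adjusted p = 1. Psma1, an alpha-ring subunit, stood at 97.76, 110.2, 98.46, 95.84 and 102 CPM in empty-vector females and 107.1, 115.6, 100.6 and 100.1 in Hand2 females. In males it stood at 100.2, 105.7, 100.5, 115.4 and 109.6 CPM against 100.1, 97.58 and 99.32, so the 3 Hand2 males lay just below all empty-vector males. Psmd7, a lid subunit, stood at 222.5, 244.4, 215.6, 224.3 and 219.4 CPM in empty-vector females and 250.1, 234.7, 230.1 and 212.3 in Hand2 females. In males it stood at 224.7, 218.9, 224.2, 230.6 and 226.9 CPM against 223.4, 207.8 and 192.7, with overlap in both sexes. Red blood cell markers had an unadjusted p under 0.05 in this contrast for 4 of 4 (median 2.52, edgeR adjusted p = 1), and their part was not tested.

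The comparison of males with females, with the vector taken into account, called 1 member. Psmd11 fell in males, among the 2.72% of all genes called lower in males and the 5.63% called in either direction by edgeR at 5%. An unadjusted p under 0.05 was found for 6 of 34 members (Psmd11, Psma3, Psmd8, Psmc5, Psma5 and Psma2), or 17.6%, and for 21.6% of all genes. DESeq2 called 2 members, Psmd11 and Psma3, and 9.1% of all genes, and limma-voom called Psmd11 and 7.24% of all genes. Each of these tools gave 6 members an unadjusted p under 0.05, against 22.6% and 24.3% of all genes. The log2 fold change was below 0 for 31 of 34 members, with a median of -0.05 against 0.00058 over all genes. Core and regulatory members had medians of -0.04 and -0.05. For 28 of 34 members the 95% interval included 0. Under upper-quartile scaling 23 members lay below 0 with a median of -0.02. That scaling also moved the calls over all genes from 406 higher and 380 lower to 514 and 270. Without empty-vector replicate 2 and Hand2 replicates 6 and 7, 20 members lay below 0.

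Psmd11 (chr11:80428615-80472133, mm10, plus strand) encodes a lid subunit that braces the regulatory particle against the core. It ran from 130.6 to 173.9 CPM in 9 females with a median of 152.5, and from 126.5 to 141.2 CPM in 8 males with a median of 133.3. In females 8 of 9 animals lay above every male; Hand2 replicate 5 lay within the males' range. The log2 fold change was -0.20 ± 0.05 (SE, interval -0.30 to -0.10, edgeR adjusted p = 0.0196). The call held with each of 17 animals left out in turn and was lost without empty-vector replicates 3, 4 and 5, the empty-vector females of 23 months (-0.20, adjusted p = 0.08), and without empty-vector replicate 2 and Hand2 replicates 6 and 7 (-0.16, adjusted p = 0.139). Over all alternatives its adjusted p ran from 0.00323 to 0.139.

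Psmd8 (chr7:29174187-29180673, mm10, minus strand), another lid subunit and the member that varied most, was one of 3 with a higher mean in males. It ran from 202.6 to 291.5 CPM in females with a median of 227.8 and from 228.8 to 287.1 in males with a median of 268.5. The highest value of all belonged to a female, empty-vector replicate 2, so the sexes overlapped. The log2 fold change was 0.18 ± 0.07 (edgeR adjusted p = 0.119). Without empty-vector replicate 2 it passed, at 0.23 (adjusted p = 0.0307), and with an age term at 0.23 (adjusted p = 0.0478). In empty-vector males it lay between 265.1 and 284.5 CPM and in empty-vector females between 203.9 and 291.5.

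Psma3, an alpha-ring subunit, ran from 197.6 to 214.7 CPM in females with a median of 201 and from 181.2 to 204.3 in males with a median of 188.6, with 2 males inside the females' range. Its log2 fold change was -0.09 ± 0.03 (edgeR adjusted p = 0.109), and DESeq2 called it lower (adjusted p = 0.0461). The row of 3110056K07Rik overlaps Psma3, and reads of overlapping genes may have been split between them. The ATPase Psmc5 had a log2 fold change of -0.08 ± 0.03 (edgeR adjusted p = 0.187), and the alpha-ring subunits Psma5 and Psma2 had -0.10 ± 0.04 and -0.07 ± 0.03 (edgeR adjusted p = 0.193 and 0.213). Slow-fibre markers were called lower in males by edgeR at 5% for 7 of 7 (median log2 fold change -2.5, smallest adjusted p = 0.000428). Their sums were 282 to 1460 CPM in females and 135 to 326 in males. Adipocyte markers were called lower for 4 of 4 (median -1.45, smallest edgeR adjusted p = 0.00576), with sums of 10.1 to 32.4 and 2.48 to 9.01 CPM. Whether fibre type or fat contributes to the members' differences was not tested.

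**Figure D4:**
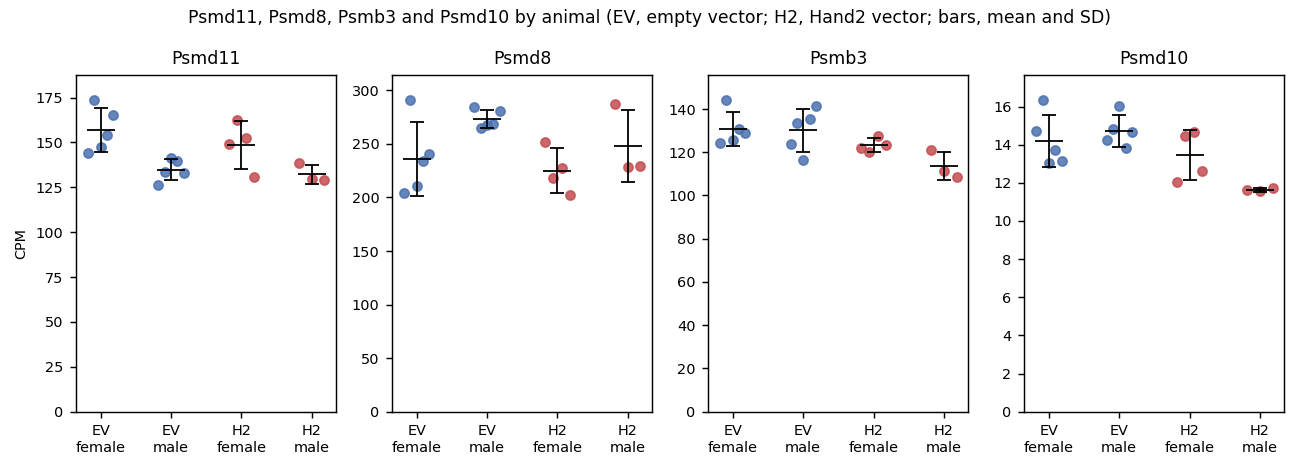
CPM of Psmd11, Psmd8, Psmb3 and Psmd10 in each animal by vector and sex, with the mean and SD of each group and axes from 0. Psmd11 is lower in males in both vectors, the 3 Hand2 males share Psmd10 values of 11.55 to 11.73 CPM, and 1 empty-vector female has the highest Psmd8.

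Core and regulatory members were set side by side in each animal, with no test of their difference. The core mean minus the regulatory mean of log2 CPM, each member centred on its mean, lay between -0.07 (empty-vector replicate 8) and 0.05 (empty-vector replicate 5) over animals. It averaged 0.0077 ± 0.0374 (SD, n = 10) with the empty vector and -0.0109 ± 0.0215 (n = 7) with the Hand2 vector. In females it averaged 0.00038 ± 0.0286 (n = 9) and in males -0.00043 ± 0.0383 (n = 8). The core members' CPM summed to 2114 ± 80.6 with the empty vector and 2054 ± 54.7 with the Hand2 vector, and the regulatory members' to 3643 ± 99 and 3641 ± 154.

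Between animals the members varied together. With the mean of each vector-by-sex group subtracted from log2 CPM, the median Pearson r over 561 pairs of members was 0.409, and 89.1% of pairs were above 0. Over all pairs of genes tested the median was -0.001 and the middle range (25th to 75th percentile) ran from -0.228 to 0.227, with a 95th percentile of 0.523. The median was 0.53 over 91 pairs of core members, 0.405 over 190 pairs of regulatory members and 0.362 over 280 pairs between them. All points share the same 17 libraries and their scaling, and the core transcripts are shorter (median 1162.5 against 1710.5 bases). The mean z-score of the core members and that of the regulatory members had r = 0.727 and Spearman's rho = 0.694 over 17 animals, and r = 0.589 without empty-vector replicates 6 and 2, the 2 farthest from the median core score. No p is given for these values, since members were chosen as a group.

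Psmd12, a lid subunit, had the highest mean correlation with the other members (0.506), and its closest partner was the core subunit Psmb2 (r = 0.925). It ran from 162.9 to 185.9 CPM with a median of 171.3. The ATPase Psmc1 followed at 0.504, and ran from 194.2 to 224.4 CPM with a median of 214.8. Other close pairs were Psmb1 with Psmb4 (r = 0.896), Psmb3 with Psmb6 (0.865) and Psmd4 with Psmd7 (0.844). Psma2 stood apart from the other core members, with a mean r of 0.0851 to them, and was closest to the base subunit Psmd2 (0.821).

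A few members did not follow the rest. The assembly chaperone Psmd5 had a mean r of -0.28 with the other members and ran against Psmb6 (-0.748), Psmb3 (-0.735) and Psmc3 (-0.663). Empty-vector replicates 10 and 2, among the animals highest in the member sum, held its lowest values, 18.96 and 19.76 CPM. The ATPase Psmc6 had a mean r of 0.0446 and ran from 137.4 to 154.6 CPM with a median of 146, closest to Psma2 (0.707). The assembly chaperone Psmd10 had a mean r of 0.102, above that of Psmc6, and Psmd9, the other chaperone, had 0.359. Psmd9 lay well inside the range of the structural members. Only Psmc6 among them lay below Psmd10, and the next, Psma2, had 0.208. Psmd10 also had the highest counting CV of the members tested (5.36%).

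**Figure D5:**
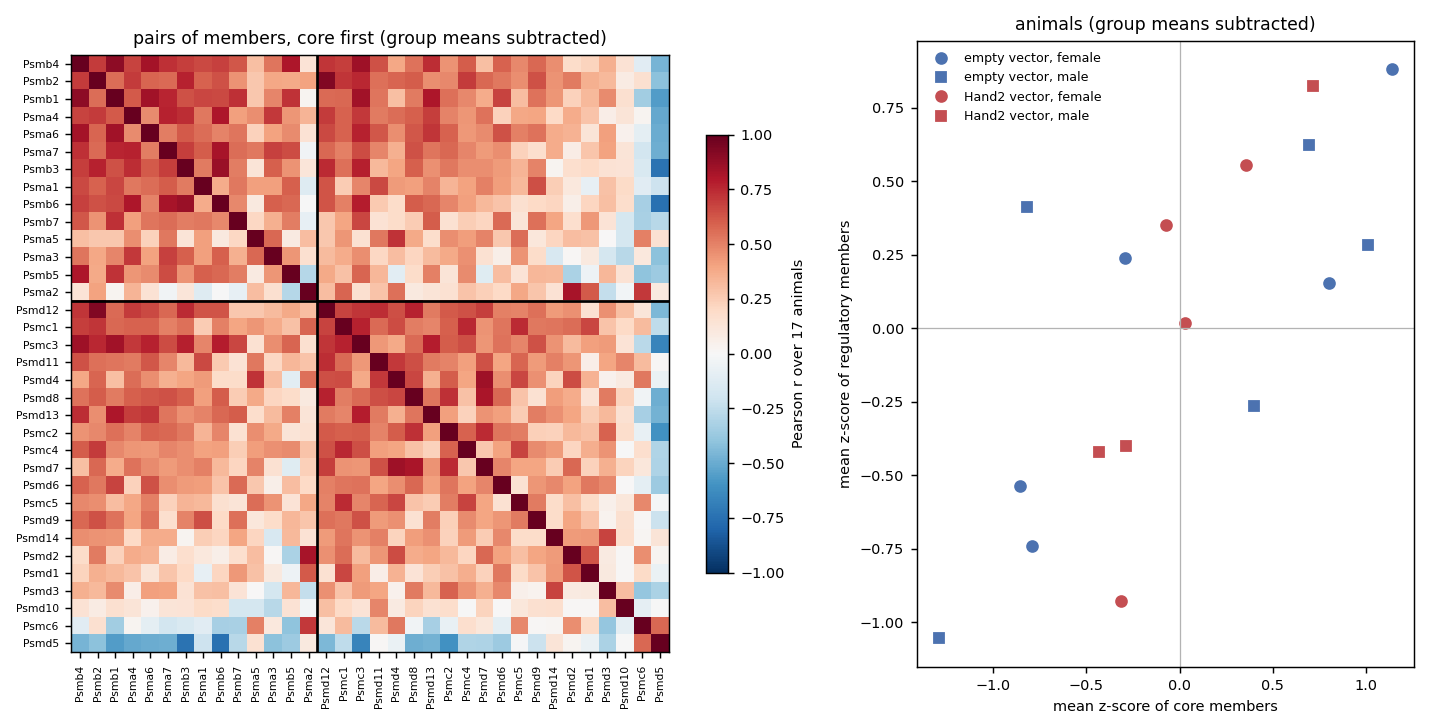
Left, Pearson r between members over 17 animals after group means were subtracted, core members first and each block ordered by mean r. Right, mean z-score of core against regulatory members for each animal. Most of the map is positive, the rows of Psmc6 and Psmd5 are pale or negative, and the animals spread along a rising diagonal with empty-vector replicate 8 off it (core -0.819, regulatory 0.412).

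Among the 28 members with a promoter in the table, the 10 with an ETS core had a median pairwise r of 0.501 and the 18 without one 0.287, with 0.394 between the sets. The sets differ in their share of core members (1 of 10 with an ETS core), though pairs of core members had the higher median r (0.53 against 0.405). They differ too in members that did not follow the rest. Among members with a mean r of 0.208 or lower, Psmd5, Psmd10 and Psma2 (-0.28, 0.102 and 0.208) have no ETS core, while Psmc6 (0.0446) has one. The values are a description, and a link to the motif was not tested. Measures that the rule did not use were also set beside the members, with group means subtracted. The log2 sum of fibroblast markers had r = -0.617 (rho = -0.62) with the mean member z-score over 17 animals. It had -0.711 with the core mean and -0.458 with the regulatory mean. Its r with the mean member z-score was the largest in absolute size among the marker lists. The others were Schwann cell (-0.398), macrophage (-0.298), fast fibre (-0.255), adipocyte (-0.142), slow fibre (0.00583), red blood cell (0.0833) and endothelium (0.26). The TMM factor had r = -0.488 (rho = -0.395), and log2 total counts had r = 0.0591 (rho = 0.11). Fibroblast sums ran from 575 to 1660 CPM. The part of tissue composition and scaling in the co-variation was not tested. Ranked over all 13965 genes, the genes outside the lists whose log2 CPM, with group means subtracted, was most like the mean member z-score over 17 animals were Tmem82 (r = 0.9), Ipo5 (0.876), Mrps9 (0.872), Dgkd (0.862), Baz2a (0.85) and Myot (0.847).

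Other genes of the pathway were read from fixed lists. In the comparison of vectors 0 genes of any list passed in edgeR. In that of sexes 3 genes of the pathway lists did, all lower in males. They were the muscle ubiquitin ligase Trim63 (-0.94 ± 0.22, edgeR adjusted p = 0.024) and the ligase subunit Fbxo31 (-0.29 ± 0.07, edgeR adjusted p = 0.0306). The third was Rps27a, which encodes ubiquitin fused to a ribosomal protein (-0.13 ± 0.03, edgeR adjusted p = 0.0266). Trim63 averaged 253.1 CPM in males and 485.5 in females. These 3 calls were near the threshold and were lost, at adjusted p between 0.0501 and 0.0685, with single animals left out: Trim63 on leaving out empty-vector replicate 7 or Hand2 replicate 6 or 7, Rps27a on leaving out empty-vector replicates 7 or 9 or Hand2 replicate 6, and Fbxo31 without any of empty-vector replicates 3, 4, 6 and 7 or Hand2 replicates 1, 3, 6 and 7. Fbxo31 and Rps27a were also lost in limma on the authors' normalized values and with an age term, and Rps27a under upper-quartile scaling. All 3 were lost without empty-vector replicates 3, 4 and 5, where Trim63 had -0.61 and adjusted p ran from 0.14 to 0.192, and without empty-vector replicate 2 and Hand2 replicates 6 and 7, with adjusted p from 0.0639 to 0.142.

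Of the 8 atrophy ligases 2 passed, of the 6 ubiquitin genes and activating enzymes 1, and of the other pathway lists none. Over all genes edgeR called 5.63%, with 2.72% lower in males, so these few calls are not read as a trait of the pathway. Among 11 measured regulators of proteasome gene transcription, 10 had values below 0 in males, and the smallest p belonged to Mafk, a small partner of the Nfe2l factors (-0.87 ± 0.28, edgeR adjusted p = 0.0809). Mafk averaged 84.64 CPM in females and 44.74 in males, with 189 CPM in 1 female, empty-vector replicate 3. Nfe2l1 had -0.11 ± 0.07 and Nfe2l2 -0.23 ± 0.12 (edgeR adjusted p = 0.401 and 0.302), and Nfe2l3 was below the filter. With group means subtracted, Nfe2l2 and Nfe2l1 had r = 0.76 and 0.698 with the mean member z-score, the highest among these listed genes. Their ranks over all genes tested were 64 and 180. The other regulators above 0 were Stat3 (0.38), Keap1 (0.24), Mafg (0.134), Mafk (0.104) and Bach1 (0.0619). Those below 0 were Ddi2 (-0.0635), Maff (-0.13), Ngly1 (-0.259) and Nrf1 (-0.383). What these values rest on was not tested. Among 7 proteasome-bound factors the smallest p in the comparison of sexes belonged to the deubiquitinase Uchl5 (-0.13 ± 0.04, edgeR adjusted p = 0.0941). Among 5 activators and inhibitors it belonged to the activator Psme4 (0.15 ± 0.05, edgeR adjusted p = 0.124). The 5 assembly chaperones of the core, Pomp and Psmg1 to Psmg4, lay between -0.03 and 0.03 in the comparison of sexes and between -0.12 and 0.01 in that of vectors.

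The immunoproteasome subunits Psmb8, Psmb9 and Psmb10 summed to 18.5 to 42.9 CPM in 16 animals and to 95.7 in empty-vector replicate 5. In that animal the constitutive members summed to 5860 CPM, inside the range of the others. None of the 3 passed in either comparison (smallest edgeR adjusted p 0.924 between vectors and 0.75 between sexes).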

How the data were processed

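Libraries were made from EDL RNA of 17 mice with a TruSeq v2 kit, per the labels. Reads were placed on mm10, per the submitters' processing notes; the sources used here name no aligner, counter or use of strand, so reads of a gene and its overlapping partner cannot be told apart. The authors deposited estimated counts per gene and normalized log2 values, per the file headers. Estimated counts were rounded, kept by edgeR's filterByExpr with vector-by-sex groups (13965 of 36172 rows), and scaled by TMM. The test was the robust quasi-likelihood F test of edgeR 4.0.16 in R 4.3.3, with Benjamini-Hochberg adjustment over all genes tested at 5%. Vector and sex were terms of one model; effects within a sex and their difference came from a model with 4 groups. An SE is the size of a log2 fold change divided by the root of its F, and confidence intervals cover 95%. All CPM here include the TMM factor, and log2 CPM use a prior count of 2. The procedure was tested on simulated data. The changes planted there were larger than every member's log2 fold change in the comparisons of vectors and of sexes. Recovery of changes as small as the members' was therefore not tested. Counts carry no molecular identifiers, so the floor for a count of 0 covers counting error only.

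Transcript and coding lengths come from GENCODE M21 (GRCm38), taking the RefSeq-paired transcript with the longest coding sequence; which isoforms the muscle uses was not measured. Promoters come from RefSeq. Of 53 rows described as proteasome pseudogenes, 51 were at 0 in every sample. The 6 promoter motifs were chosen after the promoter table was seen. Members and gene lists were chosen with earlier results of these data known. All members are named; full values are given for those called, the 3 with the smallest p in each comparison, the 2 highest and 2 lowest per kilobase in each particle, and the 2 with the highest and lowest mean correlation, and up to 4 genes of each other list. Alternatives were DESeq2 1.42.0, limma 3.58.1 (voom with quality weights, and on the normalized values), other scalings and filters, an age term, single ages, no sex or vector term, empty-vector replicates 3, 4 and 5 left out, and each animal left out. Leaving out empty-vector replicate 2 with Hand2 replicates 6 and 7, the extremes of the member sum, was added after seeing the data.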

Additional observations from a re-analysis of the deposited data

Results flagged for a closer look

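Of 68 sets of values (34 members in the 2 vector groups), 3 held an animal set apart from the rest of its group by Dixon's test at 95%, where chance gives about 1 in 20. Psmb4 stood at 176.9 CPM in Hand2 replicate 6 and at 184.1 in the next Hand2 animal. Psmd3 stood at 226.2 CPM in empty-vector replicate 2 and at 210.5 in the next empty-vector animal. Psmd7 stood at 244.4 CPM in the same animal and at 230.6 in the next.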

How the results depend on the processing

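Of 579 values of the main results under the alternatives, 568 stayed within a set tolerance and 11 moved. Counts of members called for the vector, 0 in every setting, are among those kept and could hardly move. For a median r the tolerance was the SD of r over its pairs, which is wide. The share kept therefore says little about how stable the results are. For medians over members the tolerance was 0.041 log2, the pooled SD between animals of the mean member level. Several of the medians are smaller than that, so one could change sign and still count as kept. The median for the vector ran from -0.05 to 0.01, and in females from -0.01 to 0.02. Genes followed through the alternatives were those called and the 3 members with the smallest p in each comparison. Of 779 values of these genes and of medians by particle, 27 lost a call, 4 gained one and 2 moved. None of the genes followed reversed its sign. Signs of the other members were not followed singly, but some did change. For the vector, 16 to 31 of 34 members lay below 0 over the alternatives. Between sexes, DESeq2 called 2 members lower; an age term called 1 higher (Psmd8); without empty-vector replicates 3, 4 and 5, 0 were called lower; leaving out single animals gave 0 to 1 called higher, the 1 being Psmd8 without empty-vector replicate 2. Without empty-vector replicate 2 and Hand2 replicates 6 and 7, chosen after seeing the data, 1 was called higher and 0 lower, the median difference of the vector effect between sexes was -0.0216 in place of -0.07, and r between the core and regulatory means was 0.605. That r ran from 0.6461 (without empty-vector replicate 6) to 0.844 (without empty-vector replicate 8) with single animals left out. Per coding kilobase the highest to lowest ratio was 3.286 in place of 6.965 for core and 17.04 in place of 40.25 for regulatory members. The cause of these changes was not tested. Of all genes, 786 were called between sexes, 1271 with DESeq2, 291 without empty-vector replicates 3, 4 and 5, 289 without empty-vector replicate 2 and Hand2 replicates 6 and 7, and 476, 490, 508 and 516 without empty-vector replicate 7, empty-vector replicate 3, Hand2 replicate 7 and Hand2 replicate 6. Genes called for the vector numbered 0 to 1 in all animals, 0 to 7 in females and 0 to 2 in males. No paired analysis was possible because every sample is a different animal and the numbers in the sample titles, which recur across sexes and groups, are not said to mark a shared litter, batch or day. Depth limits Psmd10 and Psmd5 most, with counting CVs of 5.36% and 4.29%. With 3 Hand2 males, the within-male values rest on few animals.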
